A study of Mus musculus with 6 samples.

Results

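The 10 genes described here are regulators of the pigment cell and the ligands that skin cells make for it. They were taken by symbol from the 17025 genes of the deposited table, and all 10 had an entry. Mitf, Sox10, Pax3, Kit, Ednrb and Mc1r are 6 factors and receptors of melanocytes, and Kitl, Edn1, Edn3 and Hgf are 4 ligands. The mice labelled cKO carried the genotype K14Cre,Ash2lF/F and those labelled control K14Cre,Ash2lF/+, so both groups had the Cre and at least 1 floxed Ash2l allele. K14Cre is driven by a keratin 14 promoter, which is active in basal keratinocytes, and Ash2l encodes a core subunit of the complexes that methylate histone H3 at lysine 4. Integrin α6-positive cells were sorted from epidermis on the day of birth, and RNA from 3 libraries of each group was sequenced.

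Melanocytes arise from the neural crest, reach the epidermis and hair follicles before birth, and take their cues there from keratinocytes and dermal cells. Stem cell factor, encoded by Kitl, acts through the receptor tyrosine kinase Kit. Endothelin 1 and endothelin 3 act through the G protein-coupled receptor Ednrb, hepatocyte growth factor acts through Met, and melanocortins act through Mc1r. Inside the cell, Pax3 and Sox10 are known to drive Mitf from its melanocyte promoter together with cAMP signalling, and Mitf binds motifs ahead of the pigment enzyme genes.

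Promoter windows from RefSeq on GRCm38.p6, each running from 250 bases before to 50 bases after a start, were found for 8 of the 10 genes, in 12 windows. Sox10 and Pax3 were the other two. The deposited values were made on GRCm39, so the windows were matched by symbol. The windows below are shown because they hold the motifs named in the background above. The Mitf window lies at chr6:97991533-97991832 on the plus strand, at the most downstream of 3 Mitf starts in the table, and its capitals mark the cAMP response element TGACGTCA at bases -153 to -146 from the start. That motif, sought on both strands, was in 1.79% of all 32851 windows and in no other window of these genes. The Mc1r window lies at chr8:123406832-123407131 on the plus strand, and its capitals mark an M-box core, TCATGTG, at bases -52 to -46. 
Mitf, melanocyte start: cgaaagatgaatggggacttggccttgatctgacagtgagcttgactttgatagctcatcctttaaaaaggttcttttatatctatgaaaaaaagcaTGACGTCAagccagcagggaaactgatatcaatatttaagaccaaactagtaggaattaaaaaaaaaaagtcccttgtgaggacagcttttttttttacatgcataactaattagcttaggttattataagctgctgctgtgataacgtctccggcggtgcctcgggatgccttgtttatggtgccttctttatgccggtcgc
Mc1r: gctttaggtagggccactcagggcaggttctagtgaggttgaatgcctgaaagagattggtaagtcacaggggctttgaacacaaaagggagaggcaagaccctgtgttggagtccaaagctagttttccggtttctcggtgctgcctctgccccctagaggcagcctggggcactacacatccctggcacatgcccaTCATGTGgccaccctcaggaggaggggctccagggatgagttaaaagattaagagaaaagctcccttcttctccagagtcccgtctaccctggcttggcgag

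The M-box core TCATGTG, the motif that MITF is known to bind, was in 3.77% of all windows on either strand. Among the pigment genes, 8 of 13 had a window, and the core was in those of 5: Dct, Slc24a5, Trpm1, Tyr and Tyrp1. Dct held it at bases -232 to -226 and again at -151 to -145, Slc24a5 at -13 to -7, Trpm1 at -142 to -136, Tyr at -22 to -16 and Tyrp1 at -47 to -41. Each stretch is printed 5′ to 3′ on the strand that reads TCATGTG, with 12 bases on either side and the core in capitals. They lie at chr2:125068102-125068132 (minus strand) for Slc24a5, chr4:80834154-80834184 (plus) for Tyrp1, chr7:64153681-64153711 (plus) for Trpm1 and chr7:87493516-87493546 (minus) for Tyr. Those of Dct lie at chr14:118052460-118052490 (plus) and chr14:118052379-118052409 (minus). 
Slc24a5: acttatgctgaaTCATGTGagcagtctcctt
Tyrp1: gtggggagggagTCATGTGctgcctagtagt
Trpm1: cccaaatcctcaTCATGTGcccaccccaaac
Tyr: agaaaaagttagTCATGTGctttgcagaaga
Dct, distal: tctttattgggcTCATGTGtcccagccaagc
Dct, proximal: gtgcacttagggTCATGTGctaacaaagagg
The letters TATAAA were in 13.6% of windows, among them that of Kitl at bases -25 to -20 and, on the other strand, the same Mitf window at -175 to -170. The letters ACAAAG, a core of SOX motifs, were in 18.7% of windows and in none of the 12 of these genes. A match is a run of letters and no measure of binding.

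Before the results, the targeted gene went against the labels. Ash2l read 30.9, 29.5 and 22.9 FPKM in the libraries labelled cKO 1, 2 and 3, against 12.4, 18.1 and 15.9 FPKM in those labelled control 1, 2 and 3. It was thus higher in every library labelled cKO, with a log2 difference of 0.81 (SE 0.19, limma adjusted p = 0.0240). Leaving out a single library ended that call in 4 of 6 cases: the adjusted p was 0.0829 without cKO 1, 0.0810 without cKO 2, 0.0560 without control 1 and 0.0665 without control 3. Which exons the floxed allele removes is not given in the sources used here, so a value for the whole gene is no direct measure of the deletion. FPKM scales fragments by gene length and by library total, and its steps gave totals per library of 33622416 to 36027550 fragments (labelled cKO) and 31578875 to 33053422 fragments (labelled control). The library labelled control 1 stood apart, with 5 fragments from 4 Y-linked genes, against 3389 to 8930 in each of the other five. The 7 basal keratinocyte markers summed to between 8002 and 10445 FPKM (labelled cKO) and between 4878 and 8503 FPKM (labelled control). The keratins Krt5, Krt14 and Krt15 make up most of that sum, and the markers did not move together. Krt15, Krt5 and Trp63 had higher cKO means, with Krt15 at 2745 against 583 FPKM. Krt14, Itga6, Itgb4 and Col17a1 had lower cKO means, with Itgb4 at 24.6 against 72.6 FPKM and Col17a1 at 90.7 against 197 FPKM. Itga6, the integrin of the sort, read 53.6, 53.0 and 19.7 FPKM in the libraries labelled cKO and 162, 78.8 and 72.0 FPKM in those labelled control. It was thus lower in every library labelled cKO, though not called (limma adjusted p = 0.0710).

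All 6 melanocyte factors and receptors were far lower in the libraries labelled cKO, with control means 6.60 to 9.97 times the cKO means, and their groups did not overlap. With 3 libraries a group, such a separation has an exact two-sided permutation p of 0.1, and its share over all genes was not counted. Of the ligands, Kitl was lower as well, Edn1 and Edn3 did not pass the test, and Hgf was close to 0 in both groups. Differences are in log2(FPKM + 1), cKO minus control, tested with limma over 11603 genes whose mean was at least 1 FPKM. A gene was called at a Benjamini-Hochberg adjusted p under 0.05. In this comparison 6 of 6 melanocyte genes and 1 of 3 tested ligands were called lower, beside 13.6% of all genes called lower and 5.87% called higher. The median difference was -2.91 over the 6 melanocyte genes and -0.17 over all genes tested. In bulk RNA of sorted cells, fewer melanocytes in the tissue, fewer passing the sort and less RNA per melanocyte cannot be told apart. The labels do not say that replicates came from separate animals, so the tests see library-to-library spread, which may be technical.

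**Figure D1:**
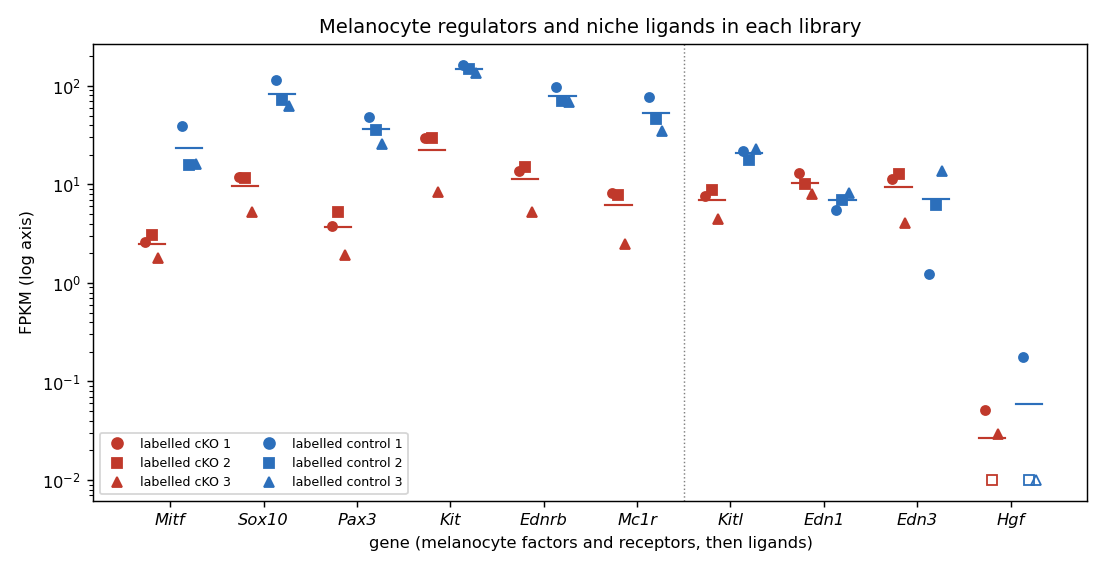
FPKM on a log axis of the 10 genes in each library, labelled cKO in red and labelled control in blue, with group means as short lines; open symbols at the bottom of the Hgf column are values of 0. The 6 melanocyte genes and Kitl separate the groups, and Edn1, Edn3 and Hgf do not.

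Among the transcription factors, Mitf, the master regulator of the melanocyte lineage, had 2.61, 3.08 and 1.81 FPKM in the libraries labelled cKO, against 39.0, 15.8 and 16.1 FPKM in those labelled control. The control library 1 alone lay far above its group, and the highest cKO value was below every control value. Means were 2.50 ± 0.644 FPKM and 23.6 ± 13.3 FPKM (SD, n = 3 each), and the log2 difference was -2.71 (SE 0.35, limma adjusted p = 0.00309). These levels rest on 697 to 1123 fragments in each library labelled cKO and 5584 to 13195 in each labelled control, and they sum over all Mitf starts, since the table has 1 value per gene.

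Sox10, the neural crest factor that acts upstream of Mitf, read 12.004, 11.6 and 5.23 FPKM in the libraries labelled cKO, against 114, 71.7 and 62.7 FPKM in those labelled control. The groups lay widely apart, and cKO library 3 was well below the other two of its group. Sox10 averaged 9.61 ± 3.797 FPKM in the cKO libraries and 82.9 ± 27.6 FPKM in the control libraries, a log2 difference of -3.01 (SE 0.33, limma adjusted p = 0.00192). Schwann cells are known to use Sox10 too. The summed level of 12 Schwann cell and glia markers ranged over 8.80 to 23.0 FPKM (labelled cKO) and 45.8 to 52.7 FPKM (labelled control). Of their 8 tested members 2 were called lower, Foxd3 and Pmp22, beside 13.6% of all genes. The Pmp22 call was lost without control 2 (adjusted p = 0.0639) or control 3 (0.0536). The part of these markers in the Sox10 difference was not tested.

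Pax3, a paired-box factor of neural crest and melanoblasts, had 3.79, 5.30 and 1.94 FPKM in the libraries labelled cKO, against 48.4, 35.6 and 26.0 FPKM in those labelled control. Its order within each group was led by cKO 2 and control 1, and no values overlapped between groups. The means of 3.68 ± 1.68 and 36.7 ± 11.3 FPKM gave the widest ratio of the 6 genes, with the control mean at 9.97 times the cKO mean, and the log2 difference was -3.03 (SE 0.33, limma adjusted p = 0.00171).

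The 3 receptors fell with the factors. Kit, the stem cell factor receptor, read 29.4, 29.7 and 8.41 FPKM in the libraries labelled cKO, against 164, 147.8 and 134 FPKM in those labelled control. The control values lay close together, while cKO library 3 was far below cKO 1 and 2. The means were 22.5 ± 12.2 FPKM in the cKO libraries and 148.5 ± 15.1 FPKM in the control libraries, with a log2 difference of -2.85 (SE 0.42, limma adjusted p = 0.00486). Mast cells are known to carry Kit as well. Of 11 mast cell markers the table held Cma1 and Hdc, with a summed level of 0 to 0.0105 FPKM (labelled cKO) and 0.479 to 1.35 FPKM (labelled control). Cma1 was at 0 in 5 of 6 libraries. Hdc read 0, 0 and 0.0105 FPKM in the libraries labelled cKO, against 0.479, 0.549 and 1.07 FPKM in those labelled control. Both had means below 1 FPKM and were not tested. With a minimum mean of 0.1 FPKM, Hdc was called lower. The part of mast cells in the Kit difference was not tested.

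Ednrb, the endothelin receptor whose loss is known to leave mice spotted, had 13.7, 15.0 and 5.31 FPKM in the libraries labelled cKO, against 97.4, 70.6 and 69.0 FPKM in those labelled control. As for Kit, cKO 3 was lowest and control 1 highest, without overlap of the groups. Averages of 11.4 ± 5.27 FPKM in the cKO libraries and 79.0 ± 15.96 FPKM in the control libraries corresponded to a log2 difference of -2.79 (SE 0.35, limma adjusted p = 0.00263).

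Mc1r, the melanocortin receptor that switches between dark and yellow pigment, read 8.15, 7.87 and 2.46 FPKM in the libraries labelled cKO, against 77.0, 46.2 and 35.2 FPKM in those labelled control. Both groups spread over a wide range and still stayed apart. Mc1r averaged 6.16 ± 3.21 FPKM in the cKO libraries and 52.8 ± 21.7 FPKM in the control libraries, with a log2 difference of -2.96 (SE 0.42, limma adjusted p = 0.00417). In GENCODE M21, on GRCm38, 17.9% of the Mc1r exon bases overlap Gm38092 on the other strand, a gene with no entry in the deposited table; whether counting used strand is not given in the sources used here.

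Within the groups the 6 genes shared their lowest cKO library and their highest control library. The library labelled cKO 3 was the lowest of its group for 6 of 6 genes, and the library labelled control 1 the highest of its group for 6 of 6. The place of cKO 3 was not particular to them. It was also lowest of its group for Ash2l, Kitl, Edn1 and Edn3. The same held for the glia, fibroblast, endothelial, immune and Merkel cell marker sums, while its basal keratinocyte sum was the highest of its group. The share over all genes was not counted. The smallest control value was between 4.32 times (Mc1r) and 5.22 times (Sox10) the largest cKO value. An exact two-sided permutation test of 3 against 3 libraries gave p = 0.1 for each of the 6 genes, the smallest p that this design allows. Without control 1, the library that stood apart in its Y-linked genes, all 6 were still called lower.

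The levels of the 10 genes, which FPKM sets per length, ran in another order in each group. In the libraries labelled cKO the order by mean was Kit, Ednrb, Edn1, Sox10, Edn3, Kitl, Mc1r, Pax3, Mitf and Hgf, and neighbours overlapped in all but the last pair. In those labelled control it was Kit, Sox10, Ednrb, Mc1r, Pax3, Mitf, Kitl, Edn3, Edn1 and Hgf, and neighbours did not overlap between Kit and Sox10, Kitl and Edn3, and Edn1 and Hgf. The endothelins thus stood among the melanocyte genes in the libraries labelled cKO and below all 6 melanocyte genes by mean in those labelled control.

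The 6 genes were then set against the output of the lineage, the summed FPKM of 13 pigment genes. That sum was 439, 419 and 254 FPKM in the libraries labelled cKO, against 3129, 3493 and 3029 FPKM in those labelled control, so the control mean was 8.68 times the cKO mean. The ratios of the 6 regulators lay on both sides of that value, at 6.60 for Kit, 6.96 for Ednrb, 8.57 for Mc1r, 8.63 for Sox10, 9.46 for Mitf and 9.97 for Pax3. That placement depends on the denominator. The sum holds Rab38, which was called higher, and Rab27a, which was not called, at 48.8 and 19.8 FPKM in cKO 3. The 10 pigment genes taken as melanocyte markers leave out both. They summed to 388, 371 and 184 FPKM (labelled cKO) and 3031, 3426 and 2968 FPKM (labelled control). The 6 regulators were not set against that smaller sum. None of the 6 differed between the groups as a percent of the 13-gene sum by more than the libraries varied.

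Mitf made up 0.594%, 0.735% and 0.711% of the pigment sum in the libraries labelled cKO and 1.25%, 0.452% and 0.533% in those labelled control (exact two-sided permutation p = 1.0 on the log2 percent). Sox10 stood at 2.73%, 2.77% and 2.06% in the cKO libraries and 3.65%, 2.05% and 2.07% in the control libraries (exact permutation p = 0.9). Pax3 was at 0.863%, 1.27% and 0.766% in the cKO libraries and 1.55%, 1.02% and 0.857% in the control libraries (exact permutation p = 0.6). For these 3 factors the highest percent was in the library labelled control 1. The receptors varied likewise. Kit came to 6.70%, 7.09% and 3.31% in the cKO libraries and 5.24%, 4.23% and 4.42% in the control libraries (exact permutation p = 0.5). Ednrb came to 3.13%, 3.59% and 2.09% in the cKO libraries and 3.11%, 2.02% and 2.28% in the control libraries (exact permutation p = 0.4). Mc1r came to 1.86%, 1.88% and 0.970% in the cKO libraries and 2.46%, 1.32% and 1.16% in the control libraries (exact permutation p = 1.0). All 6 pairs of groups overlapped, and with 3 libraries a group none of these tests can go below 0.1, so a difference within this spread was not detectable.

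**Figure D2:**
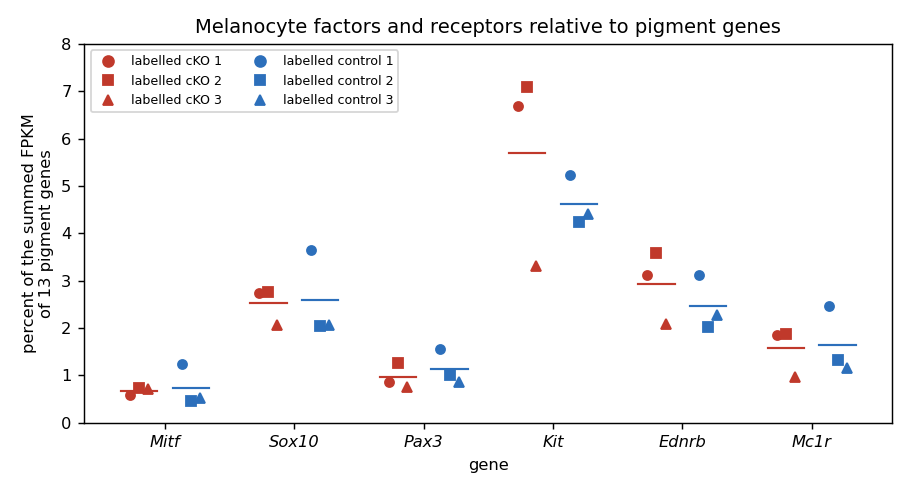
Each of the 6 melanocyte genes as a percent of the summed FPKM of 13 pigment genes, per library, labelled cKO in red and labelled control in blue, with group means as short lines. The groups overlap for all 6, from 0.452% (Mitf) to 7.09% (Kit).

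The ligands are made outside the melanocyte. Kitl, the stem cell factor of keratinocytes and other skin cells, had 7.67, 8.87 and 4.51 FPKM in the libraries labelled cKO, against 21.9, 17.5 and 22.9 FPKM in those labelled control. The highest cKO value was well below the lowest control value. Means of 7.02 ± 2.26 FPKM and 20.8 ± 2.88 FPKM (SD, n = 3 each) gave a control mean 2.96 times the cKO mean and a log2 difference of -1.48 (SE 0.25, limma adjusted p = 0.00718). This stood beside a difference of -2.85 for its receptor Kit.

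Edn1, endothelin 1, which keratinocytes are known to secrete, read 13.001, 10.2 and 8.08 FPKM in the libraries labelled cKO, against 5.57, 6.87 and 8.25 FPKM in those labelled control. The groups met at a single point, where cKO 3 lay just below control 3. The means were 10.4 ± 2.47 FPKM in the cKO libraries and 6.90 ± 1.34 FPKM in the control libraries, and the log2 difference of 0.52 was not called (SE 0.22, limma adjusted p = 0.142; exact permutation p = 0.2). Under median-of-ratios scaling, which moved the median difference of all genes to 0.03, it was 0.72 and was called (adjusted p = 0.0400). An antisense gene, Gm47118, with no entry in the table, overlaps 1.64% of the Edn1 exon bases.

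Edn3, endothelin 3, a ligand known from the dermis, had 11.5, 12.6 and 4.03 FPKM in the libraries labelled cKO, against 1.24, 6.16 and 13.8 FPKM in those labelled control. The groups overlapped fully, and the lowest and the highest library of the 6 were both controls. The averages of 9.38 ± 4.67 FPKM and 7.08 ± 6.34 FPKM gave a log2 difference of 0.62 that was not called (SE 0.68, limma adjusted p = 0.553; exact permutation p = 0.7), and without control 1 it was -0.12.

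Edn3 was set beside a list of dermal markers, although a sort for integrin α6-positive epidermal cells would be thought to leave out dermal fibroblasts. RNA of these markers was still read in every library, and its source was not tested. The 11 markers of fibroblasts and the dermal condensate summed to 587, 544 and 194 FPKM in the libraries labelled cKO, against 126, 216 and 427 FPKM in those labelled control. Control 1, cKO 3 and control 2 were, in that order, the lowest in both Edn3 and this sum, while the other 3 libraries ran in opposite orders, with control 3 highest of them in Edn3 and lowest in the sum. Of the 11 markers limma called 1 higher, Sox18 (adjusted p = 0.0403), and 0 lower, beside 5.87% and 13.6% of all genes. At an unadjusted p under 0.05, Sox18 and Col1a1 were higher and 0 lower. The Sox18 call was lost without cKO 1 (adjusted p = 0.0976), cKO 2 (0.0991), control 1 (0.0559) or control 2 (0.0955). Ednra, the endothelin A receptor of mesenchymal and vascular cells, read 10.3, 11.01 and 3.06 FPKM in the cKO libraries and 1.19, 5.89 and 10.8 FPKM in the control libraries, in the same order of libraries as Edn3 among the lowest 3. The Edn3 to Ednra ratio stayed between 1.11 and 1.32 in the cKO libraries and between 1.04 and 1.28 in the control libraries. The part of fibroblasts in the Edn3 levels was not tested.

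**Figure D3:**
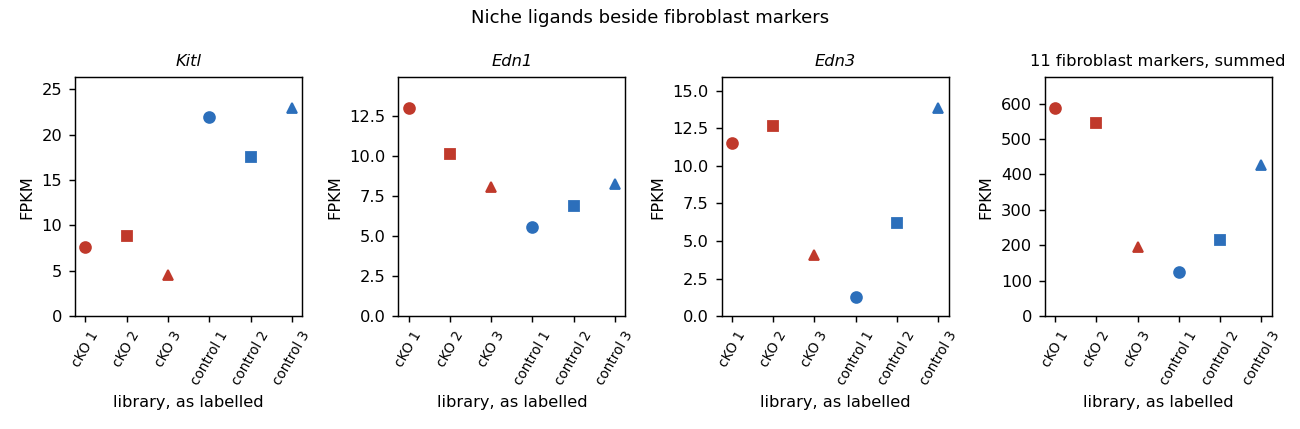
FPKM of Kitl, Edn1 and Edn3 and the summed FPKM of 11 fibroblast and dermal condensate markers, per library, labelled cKO in red and labelled control in blue; each panel has its own axis from 0. Kitl separates the groups, and Edn3 and the fibroblast sum are both lowest in control 1.

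Hgf, hepatocyte growth factor, a product of mesenchymal cells, read 0.0519, 0 and 0.0290 FPKM in the libraries labelled cKO, against 0.177, 0 and 0 FPKM in those labelled control. In fragments these were 5, 0 and 3 against 16, 0 and 0. At a mean below 1 FPKM it was not tested, and a difference was not detectable at this depth. In GENCODE M21 6.74% of its exon bases overlap Gm43489 on the same strand, a gene with no entry in the table.

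Set against receptor genes, 3 of 4 ratios were higher in every library labelled cKO. The denominators set much of this. The smallest control value was 4.51 times (Kit) and 4.60 times (Ednrb) the largest cKO value. A ratio over either is thus higher in every cKO library for a gene that changes little. The separation is no result on the ligands apart from the fall of the receptors. The FPKM ratio of Kitl to Kit was 0.261, 0.299 and 0.536 in the cKO libraries, against 0.134, 0.118 and 0.171 in the control libraries. For Edn1 to Ednrb it was 0.947, 0.677 and 1.52 in the cKO libraries, against 0.0571, 0.0974 and 0.120 in the control libraries. For Edn3 to Ednrb it was 0.837, 0.841 and 0.759 in the cKO libraries, against 0.0127, 0.0873 and 0.2003 in the control libraries. Groups did not overlap in these 3 ratios, each with an exact two-sided permutation p of 0.1, the smallest possible, among 4 ratios compared; the other, Edn3 to Ednra, overlapped (exact permutation p = 0.5).

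The partners of these pathways, a list of 18 genes, moved in both directions. Of the 11 tested, 3 were called lower and 2 higher, beside 13.6% and 5.87% of all genes. Their median difference was -0.28, beside -0.17 over all genes. Among the genes of endothelin processing and signalling, Ece1, the enzyme that cuts endothelins from their precursors, had 32.2, 33.9 and 22.5 FPKM in the libraries labelled cKO and 108, 62.3 and 67.7 FPKM in those labelled control. Its groups were apart, with a log2 difference of -1.37 (SE 0.24, limma adjusted p = 0.00915). Edn2, endothelin 2, was at 3.64 to 3.78 FPKM in the cKO libraries and at 31.5, 3.23 and 2.63 FPKM in the control libraries, so control 1 alone set its difference of -0.75 (adjusted p = 0.515), which was 0.27 without that library. Ednra had a difference of 0.54 (adjusted p = 0.590), and Ece2 was at or near 0.

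Met, the hepatocyte growth factor receptor of keratinocytes and melanocytes, read 5.48, 6.14 and 3.36 FPKM in the libraries labelled cKO and 43.5, 24.9 and 23.5 FPKM in those labelled control. Its groups lay apart with the same lowest cKO and highest control library as the 6 melanocyte genes, and its log2 difference was -2.38 (SE 0.29, limma adjusted p = 0.00241). The 2 membrane inhibitors of the proteases that activate hepatocyte growth factor were higher. Spint2 had 118, 113 and 120 FPKM in the cKO libraries and 67.8, 49.3 and 53.3 FPKM in the control libraries (log2 difference 1.04, SE 0.14, adjusted p = 0.00374). Spint1 had 32.3, 29.3 and 31.7 FPKM in the cKO libraries and 21.6, 22.8 and 20.5 FPKM in the control libraries (log2 difference 0.50, SE 0.13, adjusted p = 0.0332). Both were higher in every library labelled cKO, but for Spint1 the call ended when cKO 1 (adjusted p = 0.121), cKO 2 (0.0857), control 1 (0.0574), control 2 (0.0756) or control 3 (0.105) was left out. St14, a matriptase that these inhibitors block, had a difference of -0.28 (adjusted p = 0.225). Hgfac, an activator of hepatocyte growth factor, was below 1 FPKM in every library and was not tested. It read 0.122, 0.322 and 0.139 FPKM in the libraries labelled cKO, against 0.723, 0.939 and 0.501 FPKM in those labelled control.

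In melanocortin signalling, Mgrn1, a ubiquitin ligase whose loss darkens mouse coats, had 11.4, 11.99 and 9.60 FPKM in the libraries labelled cKO and 22.0, 22.6 and 22.1 FPKM in those labelled control. Control values were nearly level, and the log2 difference was -0.96 (SE 0.15, limma adjusted p = 0.00548). Atrn, the attractin coreceptor of agouti, had a difference of -0.45 and was not called (adjusted p = 0.208). Pomc, the melanocortin precursor, its protease Pcsk1 and the related receptor Mc5r had means below 1 FPKM and were not tested. Agouti, Asip, is not analysed here. Of the proteases that release growth factors from the cell surface, Adam17 had a difference of 0.05 and Adam10 one of -0.10 (adjusted p = 0.898 and 0.738), and Mmp9 was too low to test.

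**Figure D4:**
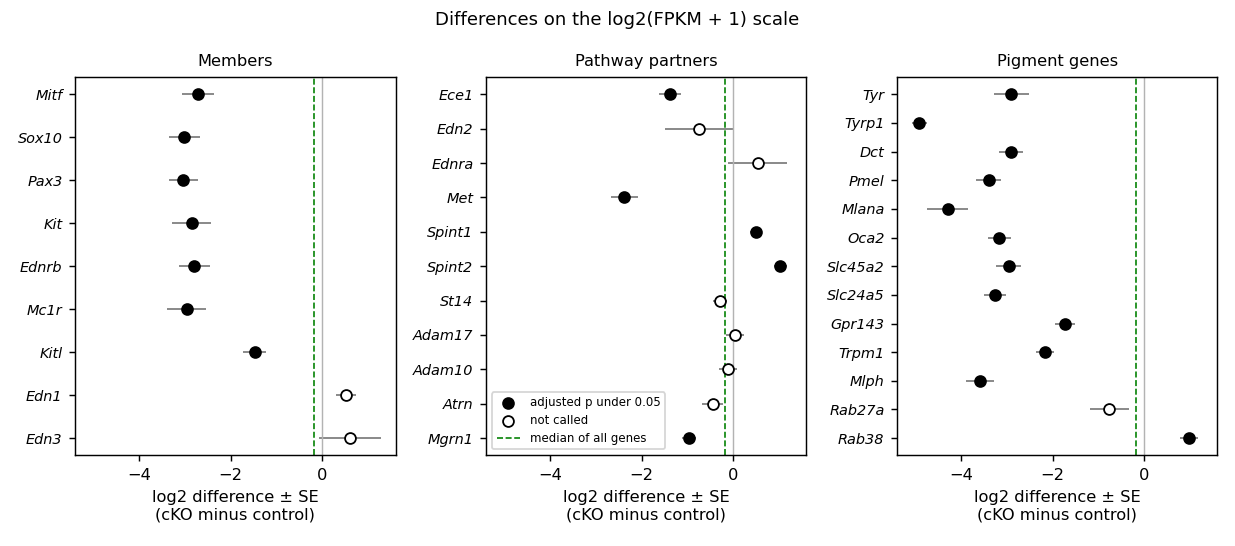
Log2 differences in log2(FPKM + 1), cKO minus control, ± SE from limma for the 9 tested genes of the 10 (left), 11 tested pathway partners (middle) and 13 pigment genes (right); filled points are called at an adjusted p under 0.05, and the dashed line is the median of all genes, -0.17. The 6 melanocyte genes lie between -3.03 and -2.71.

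Of 24 other genes of melanocyte development, 20 were tested, and limma called 7 lower and 0 higher. Their median difference was -0.48, and of all genes 13.6% were called lower and 5.87% higher. At an unadjusted limma p under 0.05, Bcl2, Erbb3, Sox5, Sox9 and Tfap2a were lower as well, and 1 gene, Cxcr4, was higher. Foxd3, a neural crest factor, averaged 0.870 ± 0.526 FPKM in the libraries labelled cKO and 10.9 ± 2.12 FPKM in those labelled control (SD, n = 3 each; log2 difference -2.70, limma adjusted p = 0.00163). Mcam, a cell adhesion molecule of melanocytes and vessels, averaged 18.2 ± 10.2 FPKM in the cKO libraries and 144 ± 14.9 FPKM in the control libraries (-3.12, adjusted p = 0.00399). Irf4, a factor that acts with Mitf on Tyr, averaged 0.482 ± 0.236 FPKM in the cKO libraries and 2.53 ± 0.777 FPKM in the control libraries (-1.24, adjusted p = 0.0153). Tfap2b, an AP-2 factor, averaged 21.5 ± 7.29 FPKM in the cKO libraries and 49.1 ± 11.6 FPKM in the control libraries (-1.18, adjusted p = 0.0275), and its call was lost without control 2 (adjusted p = 0.1003) or control 3 (0.0859). Groups were apart for these 4 genes, which were named for having the smallest adjusted p of the list. The share of all genes with groups apart was not counted. The count of 7 lower was 4 without control 1, 4 without control 2 and 3 without control 3.

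Several factors shared with keratinocytes were not called. Tfap2a, the AP-2 factor abundant in both cell types, had a difference of -0.37 (limma adjusted p = 0.0867), Sox9 one of -0.50 (0.0861), Lef1 one of -0.45 (0.528) and Snai2 one of 0.15 (0.740). Tfe3, a relative of Mitf expressed in many tissues, had one of 0.14 (0.582), while Tfeb, another relative, was called lower at -1.13 (0.0416). The Tfeb call was lost on leaving out any library but control 2 (adjusted p 0.0686 to 0.107). Though not called, Tfap2a and Sox9 were lower in every library labelled cKO. Zeb2 and Tbx2 of the same list were called lower, at -1.34 (limma adjusted p = 0.0342) and -1.74 (0.0403). Both are in the count of 7 lower genes, which fell to 3 without control 3. The genes of this paragraph were picked after their values were seen.

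The pigment genes gave a background for these values: 11 of 13 were called lower and 1 higher, beside 13.6% and 5.87% of all genes. Their median difference was -2.96. Tyrp1, an enzyme of eumelanin synthesis, had the smallest adjusted p, with 14.3, 14.3 and 10.3 FPKM in the libraries labelled cKO, against 465, 425 and 364 FPKM in those labelled control (log2 difference -4.92, SE 0.17, limma adjusted p = 1.64e-05). Slc24a5, Pmel and Oca2 followed, at -3.26, -3.40 and -3.16. Rab38, which carries pigment enzymes to the melanosome and is used by other cells too, was the one called higher, at 0.99 (adjusted p = 0.0119). The 10 pigment genes taken as melanocyte markers, 10 of 10 of them called lower, summed to 184 to 388 FPKM in the cKO libraries and 2968 to 3426 FPKM in the control libraries.

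For each tested gene, the 3 genes with the most similar profile over the 6 libraries were listed by the root mean square distance of their centred log2(FPKM + 1) values. For the transcription factors, Mitf was closest to Nceh1 (0.13), Slc6a17 and Sncg, Sox10 to Sytl2 (0.15), Bace2 and Slc7a8, and Pax3 to Sytl2 (0.09), Bace2 and Slc24a5. For the receptors, Kit was closest to C2 (0.07), Tyr and Timp2, Ednrb to Mcoln3 (0.13), C2 and Bace2, and Mc1r to Mcoln3 (0.22), Phlda1 and Bhlhe41. Sytl2, Bace2, Mcoln3 and C2 each came up for more than 1 of the 6 genes. Among the ligands, Kitl was closest to Atg4a (0.08), S100a13 and Tnfrsf21, and Edn1 to Plekhh1 (0.07), Fundc2 and B3gntl1. Edn3 was closest to the endothelin A receptor gene Ednra (0.11), then to Spon1 and Lama2. The median distance to all tested genes was 0.49 for Edn1, 0.73 for Kitl, 1.02 for Edn3 and 1.36 to 1.51 for the 6 melanocyte genes.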

How the data were processed

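RNA-seq libraries of sorted epidermal cells, 3 labelled cKO and 3 labelled control, were deposited as 1 table of FPKM per gene made by the authors. Per the submitters' processing notes, fastp, HISAT2, HTSeq and the build GRCm39 were used; of the annotation release, strand setting and filters nothing is given in the sources used here. FPKM steps gave whole fragments for 17024 of 17025 genes (relative tolerance 1e-07), with 31578875 to 36027550 fragments per library.

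The test was limma 3.58.1 (R 4.3.3, trended empirical Bayes), cKO minus control, on log2(FPKM + 1) of the 11603 genes whose 6-library mean reached 1 FPKM, with Benjamini-Hochberg adjustment over all of them and a threshold of 0.05. This scale understates changes of low genes. Ratios and percents were tested by exact two-sided permutation of the libraries. Hgf was below the minimum and not tested. Libraries of a group were not copies of each other. The closest pair, cKO 1 and 2, had a chi-square of 14.4 per gene, against 50.2 to 244 for the other pairs within a group. These values do not show whether libraries came from separate animals.

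The members and lists were chosen with earlier results of these data known. Named were all members, the targeted gene, every pathway partner, up to 4 called genes of each other list by smallest adjusted p, and the 3 nearest profiles per member (predicted genes left out). Promoter sequences are from RefSeq (GRCm38.p6) and exon overlaps from GENCODE M21. Alternatives were the pseudocount, the filter, scaling, the variance model, a replicate block, each library left out, limma-voom on recovered fragments, and other pigment denominators. The fitting script was tested on simulated data.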

Additional observations from a re-analysis of the deposited data

How the results depend on the processing

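The 6 melanocyte genes were called lower under all 17 alternatives, with adjusted p of at most 0.0270, and Kitl likewise, at most 0.0337; all percents of the pigment sum moved by less than the spread between libraries. Median-of-ratios scaling moved the median of all genes to 0.03 and the calls over all genes to 1001 lower and 1044 higher, and it called 1 ligand (Edn1) and 1 other development gene (Cxcr4) higher. At an adjusted p under 0.1, 2407 of all genes and 12 other development genes were lower and 1 of these was higher. With no filter, 4 other development genes and 4 pathway partners were called lower. Sox18 and Itgb4 were also not called with no filter (adjusted p = 0.0893 and 0.0927), without a variance trend (0.0501 and 0.0552) or at a pseudocount of 0.01 (0.0579 and 0.0524), nor Sox18 at 0.1 (0.0541), nor Itgb4 under median-of-ratios scaling (0.0524) or at a mean of at least 0.1 FPKM (0.0502). The replicate numbers did not pair the libraries (correlations of deviations -0.31, 0.08 and -0.26), and with a replicate block 893 of all genes were lower and 432 higher, 1 pathway partner was higher, Spint1, Irf4, Tfeb, Sox18, Esam and Ash2l lost their calls (adjusted p = 0.111, 0.0505, 0.0846, 0.0729, 0.0629 and 0.0613), and the 6 melanocyte genes and Kitl were called as before. Leaving out 1 library at a time gave 712 to 1448 lower and 390 to 715 higher of all genes, 1 to 2 partners higher, and 3 to 6 other development genes lower and 0 to 1 higher. The lowest of these counts over all genes came without control 2. By limma-voom on recovered fragments, Edn1 was not called either (adjusted p = 0.184). The causes of these changes were not tested. With 3 libraries a group, no exact test could go below 0.1, and Hgf, at 16 fragments or fewer in a library, was below what this depth resolves.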

Other observations

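Nrg1, the neuregulin that acts on Erbb3 in neural crest cells, was below the 1 FPKM minimum yet differed in every library. It read 0.0378, 0.0180 and 0 FPKM in the libraries labelled cKO, against 1.45, 1.02 and 1.25 FPKM in those labelled control, and with no filter limma gave an adjusted p of 0.00613. Its receptor gene Erbb3 read 86.2, 79.1 and 68.3 FPKM in the libraries labelled cKO, against 123, 104 and 97.2 FPKM in those labelled control, and was not called (log2 difference -0.47, limma adjusted p = 0.0580). Both genes were picked after their values were seen.

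Cxcr4, a chemokine receptor of migrating melanoblasts that other skin cells also carry, went the other way from the 6 melanocyte genes. It read 36.8, 37.3 and 11.3 FPKM in the libraries labelled cKO, against 3.70, 6.995 and 14.2 FPKM in those labelled control. The groups overlapped through cKO 3 and control 3, and the log2 difference of 1.66 was not called (SE 0.54, limma adjusted p = 0.0684); without cKO 3 it was 2.20 and was called (adjusted p = 0.0187). Cxcl12, its ligand, was at or below 0.485 FPKM in every library. Cxcr4 was picked after its values were seen.

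The endothelial markers summed to 3.29 to 9.80 FPKM in the libraries labelled cKO, against 11.3 to 15.3 FPKM in those labelled control. Of the 5 tested, 2 were called lower, Vwf and Esam, beside 13.6% of all genes. The Esam call was lost on leaving out any library but control 3 (adjusted p 0.0587 to 0.0894) and by limma-voom (0.0625). Kdr, of the same list, had a log2 difference of 0.56 and was not called (limma adjusted p = 0.478). Immune markers summed to 1.53 to 4.05 FPKM in the libraries labelled cKO, against 2.29 to 5.31 FPKM in those labelled control. The 1 immune marker tested, Cd74, was not called. Merkel cell markers summed to 12.3 to 16.03 FPKM in the libraries labelled cKO, against 10.2 to 24.9 FPKM in those labelled control. By limma 0 of 6 Merkel cell markers were called, and 1, Krt20, was lower at an unadjusted p under 0.05. Of the 7 basal keratinocyte markers, 1 was called higher and 1 lower, beside 5.87% and 13.6% of all genes. Krt15 was the higher one (log2 difference 2.23, limma adjusted p = 0.00215) and Itgb4 the lower (-1.70, adjusted p = 0.0437). The Itgb4 call was lost without control 1 (adjusted p = 0.125), control 2 (0.103) or control 3 (0.0936).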
